A study of Arabidopsis thaliana with 24 samples.

Results

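Arabidopsis seedlings carrying 2 different double mutations, bte1 hid1 and hid1 phil1, were compared directly. Both lack the same gene, HID1, and differ in the second mutation, so the comparison sets the bte1 lesion against the phil1 lesion in seedlings that share hid1. The comparison rests on 6 of the 24 libraries of the study, 3 of each genotype, chosen by the genotype in the sample labels, and every annotated gene that passed a filter on low counts was tested. Poly(A) RNA came from whole seedlings at 9 days of age, kept in constant white light. The other genotypes used here as reference were Col-0 wild type (WT), hid1, bte1, btl1 and bte1 btl1, with 3 libraries each; 3 libraries of an e2fa e2fb e2fc triple mutant entered the fit that estimates the spread and no comparison. The 3 libraries of each genotype are biological replicates, per the labels. The labels place the phil1 mutation in the proximal promoter of HIL1. Whether either line carries other mutations is not given in the sources used here, so the effect of the second mutation and of any other difference between the lines cannot be told apart. Both second mutations are treated here as suppressors of hid1, which the labels do not state.

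HID1 is a long noncoding RNA of Arabidopsis that acts in the response of seedlings to light. BTE1 is a subunit of the plant DREAM complex, a repressor built from E2F and DP transcription factors, the retinoblastoma-related protein RBR1, MYB3R transcription factors and DNA-binding or scaffold proteins of the TCX and ALY families. In plants and animals DREAM holds genes of the cell cycle and of DNA repair in check, and the study set it against WDR5a, a shared core subunit of the enzymes that methylate histone H3 at lysine 4.

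The genotypes were first checked at the HID1 and HIL1 loci. HID1 had 0, 0 and 0 reads in bte1 hid1 replicates 1, 2 and 3, and 0, 9 and 0 reads in those of hid1 phil1. WT had 163, 215 and 213 reads. Both doubles thus lacked HID1 reads except in 1 library, hid1 phil1 replicate 2. That library stood apart in other ways as well: its counts differed from those of the other 2 hid1 phil1 libraries with a chi-square per degree of freedom of 19.7 and 20.1, against 4.64 between those 2 and 9.21 to 9.91 among the bte1 hid1 libraries. The 6 libraries held 21562442 to 23170357 counted reads. Several results below are also given without hid1 phil1 replicate 2, and those given only with it may depend on that library. The annotation used here holds no gene called BTE1, so its level is not given.

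HIL1 was high in both doubles and somewhat lower in bte1 hid1. It stood at 19.8, 22.8 and 18.5 CPM (the read count relative to the library total scaled by TMM, in the usual CPM unit) in bte1 hid1, and at 30.9, 25.9 and 26.8 CPM in hid1 phil1. Every hid1 phil1 library was above every bte1 hid1 library. The log2 difference, given throughout as bte1 hid1 minus hid1 phil1, was -0.45 (SE 0.12, adjusted p = 0.0382). The order of the genotype means ran from WT (0.814 ± 0.0879 CPM, SD, n = 3) through hid1 (3.88 ± 0.308) and bte1 (9.17 ± 1.31) to bte1 hid1 (20.4 ± 2.21) and hid1 phil1 (27.8 ± 2.65). The call between the doubles is weak: the adjusted p was 0.151 without bte1 hid1 replicate 1, 0.175 without bte1 hid1 replicate 3, 0.188 without hid1 phil1 replicate 1 and 0.0745 without hid1 phil1 replicate 3. AT2G35743, a transcribed pseudogene with counts close to those of HIL1 in the doubles, was at 21.1 and 28.4 CPM on average, with a log2 difference of -0.43 (adjusted p = 0.164). In other lines the 2 features differed. HIL1 and AT2G35743 averaged 0.742 and 0.152 CPM in btl1, and 7.99 and 3.52 CPM in bte1 btl1. Whether the 2 features share reads was not checked, because the strand used in counting is not given in the sources used here. AT2G35760, a protein-coding gene numbered near HID1, did not pass the test between the doubles. It was at 33.9, 30.5 and 29.6 CPM in bte1 hid1 and 33.5, 42.3 and 34.3 CPM in hid1 phil1. The hid1 single mutant was at a similar level (mean 33.8 CPM), against 9.22 CPM in WT and 11.1 CPM in bte1. The rise over WT was thus not particular to the doubles. The protein-coding AT2G35750 and the snoRNA genes AT2G35744 and AT2G35747 had no reads in any hid1 or bte1 hid1 library. In hid1 phil1 they had reads only in replicate 2 (9, 6 and 2). WT had 200 to 247, 104 to 148 and 123 to 146 reads. In btl1, where HID1 averaged 5.10 CPM, AT2G35744 and AT2G35747 averaged only 0.0860 and 0.0426 CPM. The cause of that was not tested.

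Of 21897 genes tested, 494 differed between the doubles at an adjusted p below 0.05 (edgeR quasi-likelihood test with Benjamini-Hochberg adjustment), here named called genes. Of these, 418 were higher in bte1 hid1, which is 1.91% of the genes tested, and 76 were lower, which is 0.347%. At least 2-fold differences made up 117 of the higher genes and 19 of the lower ones, and at least 8-fold differences 28 and 1. The median log2 difference was 0.67 among the higher and -0.55 among the lower genes, against 0.0062 over all genes tested. Protein-coding genes made up 393 of the higher and 68 of the lower genes. Over all gene types, 242 genes were called higher in each of the 6 fits that left out 1 of the 6 libraries, and 17 genes were called lower in each. The count of lower genes was 28 without bte1 hid1 replicate 2, 41 without bte1 hid1 replicate 1 and 44 without hid1 phil1 replicate 2.

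**Figure D1:**
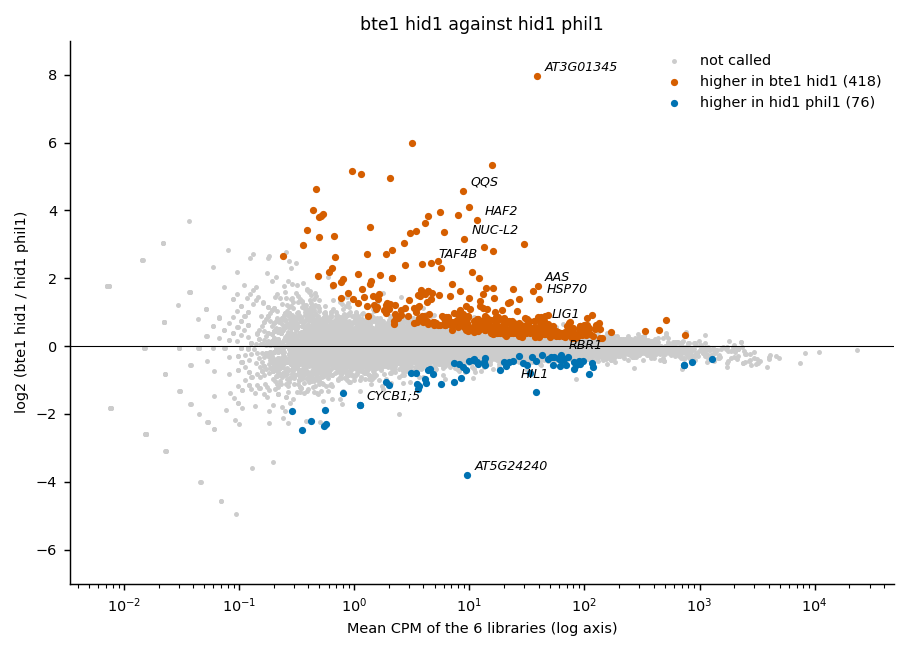
Each point is 1 gene, placed by its mean CPM over the 6 libraries (log axis) and its log2 difference, bte1 hid1 over hid1 phil1. Orange points are the 418 genes called higher in bte1 hid1 and blue points the 76 called higher in hid1 phil1. The orange points reach 7.95 (AT3G01345) and the lowest blue point is AT5G24240 at -3.80.

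HAF2, a TAF1-type subunit of TFIID with histone acetyltransferase homology, was at 19.7, 22.7 and 22.8 CPM in bte1 hid1 and at 1.09, 2.39 and 1.47 CPM in hid1 phil1, a log2 difference of 3.72 (SE 0.18, adjusted p = 1.01e-12). TAF4B, another TFIID subunit, was at 8.18, 8.35 and 7.01 CPM against 1.5, 2.15 and 0.644 CPM (log2 2.45, SE 0.27, adjusted p = 9.82e-07). For both genes all bte1 hid1 libraries were far above all hid1 phil1 libraries, and hid1 phil1 lay near the WT means of 1.27 and 1.42 CPM. TBP2, a TATA-binding protein, and TAF2 rose less, by 0.38 (adjusted p = 0.00466) and 0.34 (adjusted p = 0.00189). These were the 4 called members of 25 tested in the list of TFIID and Mediator genes, whose median log2 was 0.034 (0.064 without hid1 phil1 replicate 2), beside 1.91% of all genes called higher. The call of TAF2 was lost when only the 2 genotypes were fitted (adjusted p = 0.084).

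NUC-L2, a nucleolin of the nucleolus, was at 17.2, 16.7 and 14.8 CPM in bte1 hid1 against 1.73, 2.39 and 1.33 CPM in hid1 phil1. The groups did not overlap, and the log2 difference was 3.16 (SE 0.20, adjusted p = 5.20e-11). It was the 1 called member of 19 genes of the nucleolus and ribosome biogenesis. ATX1, a methyltransferase for lysine 4 of histone H3, was at 28.1, 26.1 and 23.2 CPM against 12.4, 12.6 and 12.4 CPM (log2 1.05, SE 0.09, adjusted p = 4.43e-08). All 3 bte1 hid1 values were about double those of the other line, and no other gene of 18 in the H3K4 methylation list was called. With 1.91% of all genes called higher, nothing is read about either list from its 1 call.

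Several of these genes have a close relative that did not pass the test. Levels per transcript length are compared here on the deposited FPKM scale, for pairs picked after their values had been seen. HAF2 averaged 4.09 FPKM in bte1 hid1 and 0.279 in hid1 phil1, whereas its relative HAF1 averaged 14.2 and 12.9 FPKM (log2 difference in counts 0.08, adjusted p = 0.765). NUC-L2 went from 0.824 FPKM in hid1 phil1 to 7.69 in bte1 hid1, while NUC-L1 was at 147 and 151 (adjusted p = 0.968). In both pairs the less abundant gene was the one that passed the test, but in others it was the more abundant one: TBP2 averaged 29.9 FPKM in bte1 hid1 and TBP1 21.0, and E2FA averaged 7.44 and E2FB 3.35. TAF4B was at 3.5 against 0.61 FPKM beside TAF4 at 22.5 against 21.4 (adjusted p = 0.997), and ATX1 at 7.62 against 3.52 beside ATX2 at 15.5 against 14.0 (adjusted p = 0.703). The tests within a pair were not compared with each other, and reads shared between near-identical copies could be split by the counting.

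Among the other genes with a symbol and the largest rises were AAS, an enzyme that makes aromatic aldehydes from amino acids, and ABCA7, an ABC transporter. AAS was at 58.0, 60.2 and 63.3 CPM in bte1 hid1 against 16.9, 17.8 and 18.8 CPM in hid1 phil1 (log2 1.76, SE 0.11, adjusted p = 6.20e-11). ABCA7 was at 24.8, 23.8 and 24.8 CPM against 7.01, 7.67 and 7.72 CPM (log2 1.71, SE 0.10, adjusted p = 2.30e-11). Replicates of one line lay within a few CPM of each other in both genes. RABH1a, a small GTPase of vesicle traffic, rose by 2.72, RPA, which in this annotation is an ARF GTPase activator of root and pollen and not replication protein A, by 2.42, and NTM1, a membrane-bound NAC transcription factor, by 1.70. Of the genes without a symbol, AT5G59230, annotated as transcription factor-like, had 6.55, 6.93 and 5.25 CPM in bte1 hid1 against 0, 0.281 and 0 CPM in hid1 phil1 (log2 5.99, adjusted p = 6.05e-09). The transcribed pseudogene AT3G30120 had 28.5, 31.1 and 33.0 CPM against 0.41, 1.45 and 0.414 CPM (log2 5.35, adjusted p = 1.01e-12). In both genes the highest hid1 phil1 value was that of replicate 2. AT2G41470, annotated as an agamous-like MADS-box protein, had 127 reads in bte1 hid1 and 3 in hid1 phil1, all 3 of them in replicate 2, a ratio of 40.2 with a 95% counting interval of 13.5 to 198 that covers counting error only.

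**Figure D2:**
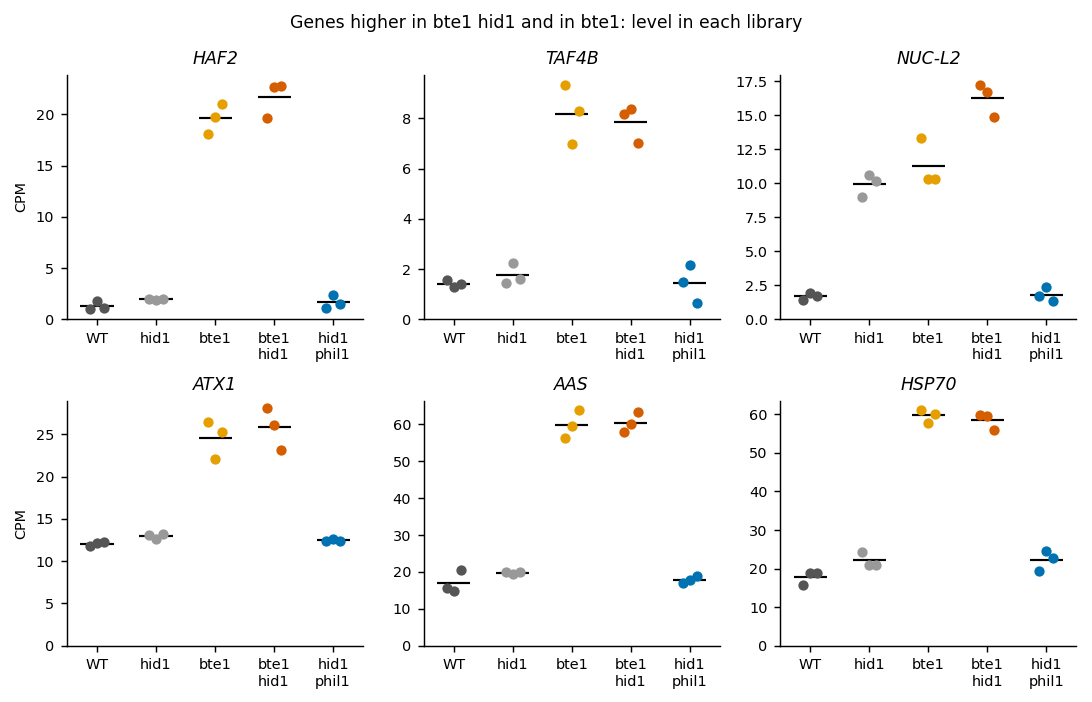
CPM of 6 genes in each library of 5 genotypes (linear axes from 0); points are the 3 libraries and bars their mean. bte1 and bte1 hid1 sit high for every gene shown, hid1 phil1 sits near WT, and hid1 is raised beside WT for NUC-L2 (9.92 against 1.69 CPM).

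Most genes tested in the list of DREAM and E2F genes differed little. BTE1, TCX3, TCX5, TCX6, TCX7 and TCX8 had no match by name in the annotation and are not among them. E2FA, an activating E2F, was at 14.6, 14.1 and 13.2 CPM in bte1 hid1 and at 8.69, 11.5 and 9.75 CPM in hid1 phil1 (log2 0.48, SE 0.12, adjusted p = 0.0229). RBR1 was at 70.9, 71.3 and 71.1 CPM against 55.4, 55.9 and 52.5 CPM (log2 0.38, SE 0.06, adjusted p = 0.000122). Neither gene's libraries overlapped between the lines. These were the 2 called of 22 DREAM and E2F genes, whose log2 values ran from -0.27 (MYB3R3) to 0.48 with a median of 0.062 (0.022 without hid1 phil1 replicate 2). Over all genes tested, 1.91% were called higher and 0.347% lower. E2FB, E2FC, DPA and DPB had log2 values of -0.01, 0.29, 0.05 and 0.01. MYB3R1, MYB3R3, MYB3R4 and MYB3R5 had 0.02, -0.27, -0.14 and -0.26. ALY1 (0.37, adjusted p = 0.134) and the chromatin assembly subunit FAS1 (0.39, adjusted p = 0.125) were the highest of those that missed the threshold. The call of E2FA was lost without bte1 hid1 replicate 1 (adjusted p = 0.108) or 2 (0.0929), and without hid1 phil1 replicate 1 (0.144) or 3 (0.0891).

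Of 37 DNA replication genes tested, 6 were called higher and none lower, beside 1.91% and 0.347% of all genes. Among the 37, 33 had a log2 above 0, and the median was 0.18 beside 0.0062 over all genes. LIG1, the replicative DNA ligase, was at 53.6, 55.6 and 56.2 CPM in bte1 hid1 against 37.6, 31.9 and 34.2 CPM in hid1 phil1 (log2 0.68, SE 0.08, adjusted p = 4.83e-06). POLD3, a subunit of DNA polymerase delta, was at 16.5, 20.2 and 17.4 CPM against 9.88, 12.4 and 9.84 CPM (log2 0.75, adjusted p = 0.000323). The lines did not overlap in either gene. TIL1, the catalytic subunit of DNA polymerase epsilon, rose by 0.44 (adjusted p = 0.00161), the sliding clamp gene PCNA2 by 0.38 (0.0288), the licensing factor CDT1A by 0.36 (0.0486) and the origin recognition subunit ORC1A by 0.75 (0.0289). Without hid1 phil1 replicate 2, 4 of these genes were called and the list's median was 0.16. None of 14 replicative histone genes was called, with a median of -0.14 (-0.056 without that library).

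The 39 genes of mitosis and cytokinesis had a median of -0.065 (-0.085 without hid1 phil1 replicate 2). None was called higher and 1 was called lower, beside 1.91% and 0.347% of all genes. That gene was TES, a kinesin of cytokinesis, at 9.80, 8.80 and 10.6 CPM in bte1 hid1 against 15.1, 13.5 and 13.6 CPM in hid1 phil1 (log2 -0.53, SE 0.11, adjusted p = 0.00391). Its libraries did not overlap, and the call was lost when only the 2 genotypes were fitted (adjusted p = 0.0678). CYCB1;5, a B-type cyclin locus outside that list, was also lower, at 0.308, 0.666 and 0.559 CPM against 1.59, 1.45 and 2.11 CPM (log2 -1.74, adjusted p = 0.00414). No gene of 15 cell cycle inhibitors was called.

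In the list of DNA damage response and repair, 8 of 38 genes were higher and none lower, beside 1.91% and 0.347% of all genes, and the median was 0.11. NAC044, a transcription factor of the plant DNA damage response, was at 2.51, 2.4 and 3.27 CPM in bte1 hid1 against 1.14, 1.03 and 1.24 CPM in hid1 phil1 (log2 1.26, SE 0.24, adjusted p = 0.00271). GMI1, a repair gene that responds to irradiation, was at 14.6, 13.2 and 17.2 CPM against 8.10, 9.08 and 8.55 CPM (log2 0.81, SE 0.13, adjusted p = 0.000228). Both were higher in every bte1 hid1 library. In the hid1 single mutant they stood higher still, at 10.7 ± 0.807 and 28.7 ± 2 CPM (SD, n = 3), against 0.945 ± 0.421 and 9.44 ± 1.70 CPM in WT, so that hid1 phil1 lay near WT and bte1 hid1 lay between WT and hid1. UVR3, a photolyase that repairs ultraviolet lesions, rose by 0.73 (adjusted p = 0.0068, and 0.085 without bte1 hid1 replicate 2), PHR1, another photolyase, by 0.54 (0.0316), NBS1, a break sensor, by 0.66 (0.0459), XRI1 by 0.41 (0.0466) and LIG4, the ligase of end joining, by 0.28 (0.0445). Without hid1 phil1 replicate 2, 4 of the list were called higher and its median was 0.056.

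Of 20 heat shock genes tested, 3 rose and none was called lower, beside 1.91% and 0.347% of all genes. HSP70, a chaperone, was at 59.9, 59.5 and 55.9 CPM in bte1 hid1 against 19.5, 24.6 and 22.7 CPM in hid1 phil1 (log2 1.39, SE 0.08, adjusted p = 2.20e-11). Its bte1 hid1 values were more than double those of the other line. ROF2, a peptidyl-prolyl isomerase of the heat response, rose by 0.81 and HSP90.1, a chaperone, by 0.74 (adjusted p = 2.95e-05 and 0.00036). The list's median was 0.033 (0.063 without hid1 phil1 replicate 2). CMT3, a DNA methyltransferase for non-CG sites, was the 1 called gene of 31 in the list of DNA methylation and silencing (log2 0.54, adjusted p = 0.0016), and EDS5, a transporter of the salicylic acid pathway, the 1 called of 22 salicylic acid genes (log2 0.61, adjusted p = 0.00513, and 0.0509 without bte1 hid1 replicate 3). With 1.91% of all genes called higher, nothing is read about these 2 lists from 1 call in each.

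All 37 genes of photosynthesis and chlorophyll had a log2 below 0, with a median of -0.36, none was called, and the smallest adjusted p was 0.0933, for the antenna protein gene LHCB6 (log2 -0.51). Their summed level was 105710, 96999 and 102710 CPM in bte1 hid1, and 111770, 154650 and 113650 CPM in hid1 phil1. The groups did not overlap, and hid1 phil1 replicate 2 was the highest by a wide margin; without it the median was -0.21. WT ranged from 117850 to 121750 CPM and hid1 from 109050 to 110780 CPM. The flavonoid and anthocyanin genes had a median of -0.33 (-0.23 without that library) and 0 of 20 called. Auxin and cell growth genes had a median of -0.24 (-0.20 without that library) and 1 of 37 called, PRE1, a growth-promoting helix-loop-helix protein. PRE1 was at 2.86, 2.04 and 1.38 CPM in bte1 hid1 against 6.87, 3 and 5.20 CPM in hid1 phil1 (log2 -1.26, adjusted p = 0.0183). Its groups lay close together, and the call was lost without bte1 hid1 replicate 2 (0.0892) or 3 (0.118) and without hid1 phil1 replicate 1 (0.137) or 3 (0.0609). No gene was called among 34 of light signalling, 15 of Polycomb, 25 of jasmonate and wounding, 19 of the cold response, 21 of the circadian clock, 24 of flowering and floral identity and 33 of nutrient transport. Over all genes, 1.91% were called higher and 0.347% lower, so nothing is read from these counts of 0 or 1.

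**Figure D3:**
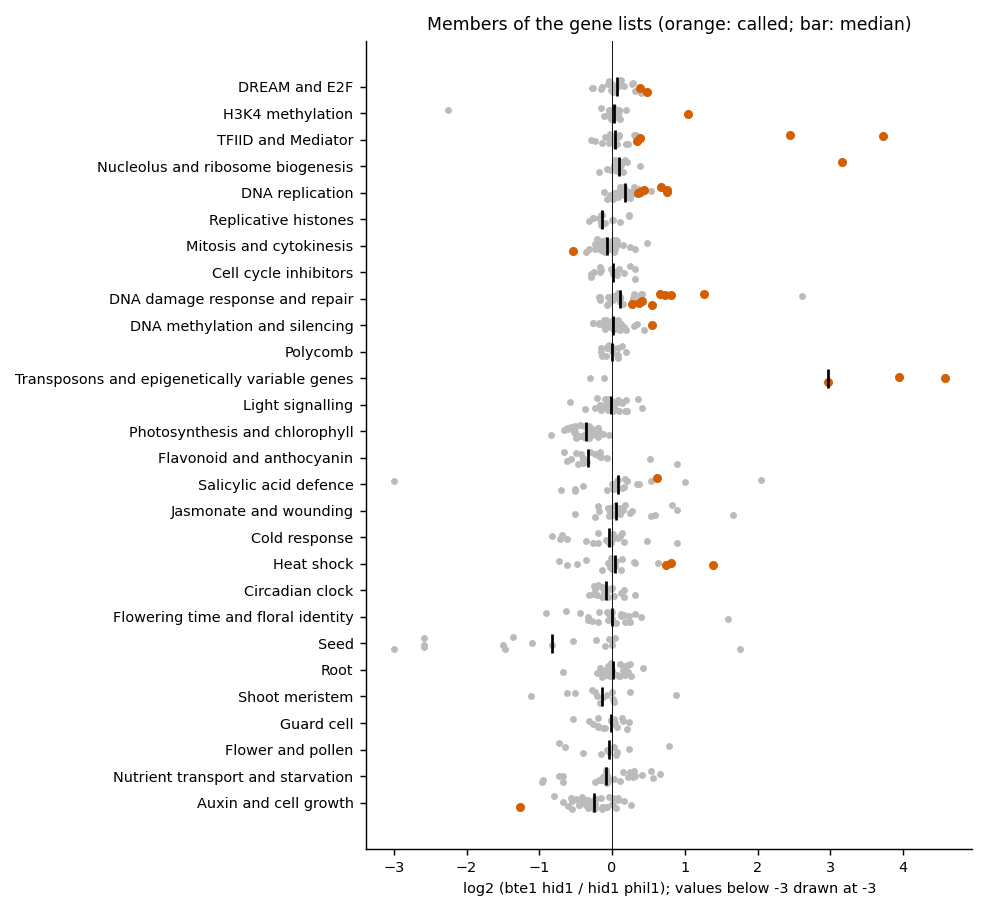
Each point is a tested member of 1 of 28 gene lists at its log2 difference, bte1 hid1 over hid1 phil1; orange points are called and bars are list medians. Of all points, 2 lie below -3 and are drawn at the edge. The DNA replication and DNA damage lists hold 6 and 8 orange points on the right, and the photosynthesis points all lie left of 0.

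Markers of single tissues were summed in each library. Their levels were 2735.6 to 2987.8 CPM in bte1 hid1 and 2470 to 2802.7 CPM in hid1 phil1 for 31 root genes, 334.1 to 369.8 and 340.6 to 375.0 CPM for 18 guard cell genes, and 138.7 to 140.1 and 136.5 to 148.2 CPM for 23 flower and pollen genes. Those ranges overlapped. The 18 shoot meristem genes had 176.4 to 187.7 CPM in bte1 hid1 and 195.0 to 201.0 CPM in hid1 phil1, ranges that did not overlap, and no gene of 14 tested was called. In the 22 seed genes the sums were 565.5 to 730.9 and 641.7 to 761.1 CPM, and 8 and 4 of them had no read in bte1 hid1 and hid1 phil1. No gene of these 5 lists was called, beside 1.91% of all genes called higher and 0.347% called lower. The part of such markers in the differences above was not tested. In whole seedlings, fewer cells of a type and less RNA per cell cannot be told apart.

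The genes lower in bte1 hid1 were led by AT5G24240, annotated as a phosphatidylinositol 4-kinase gamma-like protein. It was at 1.1, 1.73 and 1.03 CPM in bte1 hid1 against 16.8, 14.3 and 22.9 CPM in hid1 phil1 (log2 -3.80, SE 0.33, adjusted p = 5.40e-08). The other genotypes used here had means of 0.891 to 1.26 CPM, so hid1 phil1 was the line that stood out. AT1G66100, a plant thionin, was at 15.5, 21.2 and 27.3 CPM against 57.4, 56.8 and 49.6 CPM (log2 -1.35, adjusted p = 0.0279), and PRB1, a basic pathogenesis-related protein, at 2.11, 3.20 and 2.80 CPM against 6.33, 5.66 and 5.20 CPM (log2 -1.08, adjusted p = 0.00744). Both were low in hid1 too (11 and 2.36 CPM, with WT at 42.8 and 8.03 CPM). The call of AT1G66100 was lost without bte1 hid1 replicate 1 (adjusted p = 0.149) or 2 (0.117) and without hid1 phil1 replicate 1 (0.0757), 2 (0.0829) or 3 (0.0545), and that of PRB1 without bte1 hid1 replicate 1 (0.0687). RTL3, a ribonuclease III-like protein, was lower by 1.38 on the log2 scale at about 1 CPM or less, AT5G01320, a pyruvate decarboxylase family member, by 1.75, and the cysteine proteinase AT1G06260 by 1.17 (adjusted p = 0.0284, 0.0164 and 0.0012).

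Decreases of less than 2-fold included 4 genes picked out after their values had been seen. CDEF1, a cutinase, fell by 0.59 on the log2 scale, PEL3, an acyltransferase of the cuticle, by 0.55, XTH6, a xyloglucan endotransglucosylase, by 0.55 and PRP2, a proline-rich cell wall protein, by 0.53 (adjusted p = 0.0241, 0.0413, 0.0456 and 0.00395). PRP2 was at 68.3, 71.6 and 85.5 CPM in bte1 hid1 and at 102, 126 and 98.9 CPM in hid1 phil1, with no overlap. Of the genes named among the decreases, RTL3, MLP168 (-0.79), CIB5 (-0.67), CDEF1, PEL3, XTH6, AAE18 (-0.55) and MSRB6 (-0.55) each lost the call in at least 4 of the 6 fits that left out 1 library, and AT5G01320 in 3.

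The difference between the doubles was next set beside what bte1 does when HID1 is present. The comparison of bte1 with WT shares no library with that of the doubles. It called 413 genes higher (1.89%) and 138 lower (0.630%). Of the 413, 268 were also higher in bte1 hid1 than in hid1 phil1, which is 64.9% of that set and 64.1% of the 418, and 1 was lower, HIL1. The median log2 difference of the 413 genes between the doubles was 0.53, against 0.59 in bte1 itself. Of the 138 genes lower in bte1, 19 (13.8%) were lower in both comparisons, 25% of the 76, and the median between the doubles was -0.26 against -0.83 in bte1. Another pair that shares no library with the doubles, bte1 btl1 against btl1, called 738 genes higher (3.37%) and 246 lower (1.12%), of which 301 (40.8%) and 33 (13.4%) were called in the same direction between the doubles. These make up 72% of the 418 and 43.4% of the 76. In all, 246 genes were higher in the 3 comparisons. The btl1 and bte1 btl1 libraries held 14309396 to 15424866 counted reads, fewer than those of the doubles. Shared calls became fewer in fits that left out 1 library, which also have fewer replicates. The 19 became 10 to 12 without bte1 hid1 replicate 2, hid1 phil1 replicate 3, bte1 replicate 1 or 3 or WT replicate 1 or 3. The 33 became 17 without bte1 hid1 replicate 1 or 2 and 19 without btl1 replicate 3. With 1 library left out, the 268 shared increases became 216 to 254 and the 301 became 241 to 275.

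HAF2, TAF4B, AAS, HSP70 and ATX1 were among those 246, with log2 values of 3.95, 2.52, 1.82, 1.75 and 1.03 in bte1 against WT. The values between the doubles were 3.72, 2.45, 1.76, 1.39 and 1.05. In the test of the difference itself none of these 5 genes passed; HSP70 came nearest, with a difference of -0.36 (SE 0.11, adjusted p = 0.916), and a p above the threshold does not show that the 2 effects are equal.

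**Figure D4:**
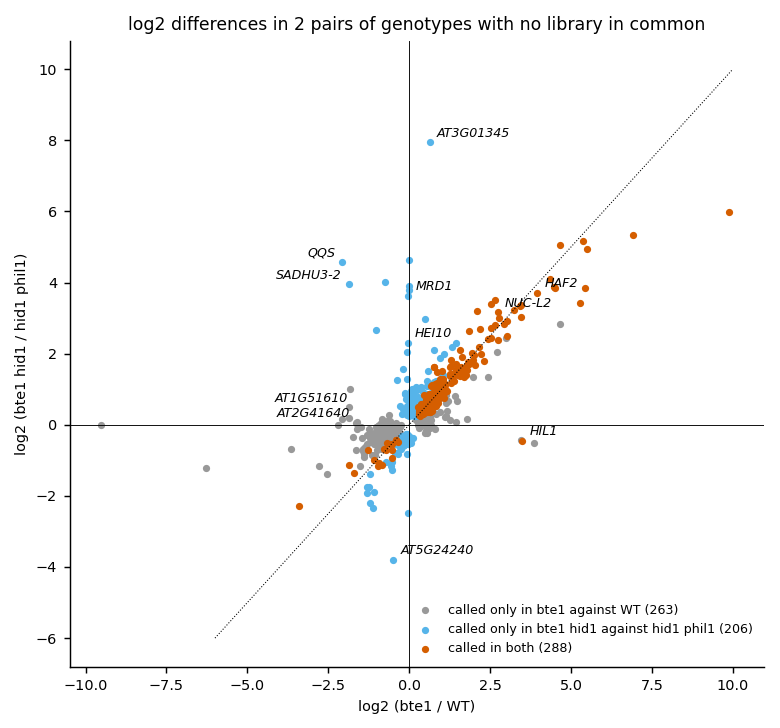
Genes called in at least 1 of 2 comparisons, by log2 of bte1 over WT and log2 of bte1 hid1 over hid1 phil1; the dotted line marks equal values. The 288 genes called in both share their sign except HIL1, and QQS, SADHU3-2 and AT3G01345, among the 206 called only between the doubles, lie far from it.

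Promoter windows of the higher genes were searched for the sites that E2F and related factors are known to bind. The window was the 250 bases before the annotated gene start in the TAIR10.1 RefSeq annotation. An E2F form was any of TTTCCCGC, TTTCCCGG, TTTCGCGC, TTTCGCGG, TTTGCCGC, TTTGCCGG, TTTGGCGC or TTTGGCGG on either strand. Such a form was present in 27 of 415 higher genes with a window (6.51%), in 11 of 117 that were higher by at least 2-fold (9.40%) and in 639 of 21692 genes tested (2.95%). None of 75 lower genes held one. The telo box AAACCCTA was present in 5.78% of the higher genes and 3.66% of all, and the MSA core AACGG, the element of MYB3R factors, in 27.0% and 21.6%. All 3 were searched on both strands, a base could count toward more than 1 of them, and the shares are descriptions with no test. Of the 33 higher genes with a window that the naming rule given at the end picked out, 1 held an E2F form, RBR1. HAF2, NUC-L2, TAF4B, AAS, ATX1, LIG1, POLD3, TIL1, E2FA, NAC044 and GMI1 held none in these windows.

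RBR1, ORC1A and CDT1A were among the higher genes described above that held an E2F form. The window of RBR1 is shown because it was the 1 higher gene of the naming rule with such a form. The windows of AT1G62690, AT4G32510, SK4 and AT5G24206 were chosen after their values had been seen, as the largest rises with an E2F form (log2 3.24, 2.70, 1.53 and 1.49). AT4G32510 is annotated as a transporter of the bicarbonate family, SK4 as an SKP1-like protein of ubiquitin ligases, and AT5G24206 as a noncoding RNA. Each window runs 5′ to 3′ on the strand of its gene, and capitals mark the E2F form or its reverse complement.
RBR1 (chr3:3919360-3919609, minus strand, TAIR10.1): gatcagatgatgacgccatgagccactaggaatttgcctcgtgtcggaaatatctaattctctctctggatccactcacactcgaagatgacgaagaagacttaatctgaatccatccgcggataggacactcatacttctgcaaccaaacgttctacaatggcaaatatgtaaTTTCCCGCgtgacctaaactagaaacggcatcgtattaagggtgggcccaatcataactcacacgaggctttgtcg
AT1G62690 (chr1:23211396-23211645, minus strand, TAIR10.1): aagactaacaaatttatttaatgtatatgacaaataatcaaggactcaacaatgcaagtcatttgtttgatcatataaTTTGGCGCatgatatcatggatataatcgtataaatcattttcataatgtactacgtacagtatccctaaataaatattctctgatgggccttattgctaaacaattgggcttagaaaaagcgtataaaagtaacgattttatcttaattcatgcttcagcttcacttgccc
AT4G32510 (chr4:15689294-15689543, minus strand, TAIR10.1): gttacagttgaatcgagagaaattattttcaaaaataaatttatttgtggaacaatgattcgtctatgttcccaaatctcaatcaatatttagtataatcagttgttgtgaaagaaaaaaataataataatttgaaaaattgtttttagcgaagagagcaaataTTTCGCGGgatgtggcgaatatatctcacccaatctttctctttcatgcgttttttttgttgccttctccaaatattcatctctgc
SK4 (chr1:6986062-6986311, plus strand, TAIR10.1): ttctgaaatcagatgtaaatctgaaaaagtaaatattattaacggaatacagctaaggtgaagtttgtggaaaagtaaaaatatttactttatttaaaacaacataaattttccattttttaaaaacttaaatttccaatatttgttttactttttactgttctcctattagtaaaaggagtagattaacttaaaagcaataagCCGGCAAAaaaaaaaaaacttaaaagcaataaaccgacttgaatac
AT5G24206 (chr5:8214690-8214939, minus strand, TAIR10.1): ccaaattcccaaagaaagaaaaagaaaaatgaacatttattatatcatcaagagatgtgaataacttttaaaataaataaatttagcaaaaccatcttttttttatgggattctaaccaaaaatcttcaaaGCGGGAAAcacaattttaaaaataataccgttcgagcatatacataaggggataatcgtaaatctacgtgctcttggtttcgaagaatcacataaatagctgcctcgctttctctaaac
The form lies 76 to 69 bases before the start of RBR1, 172 to 165 before AT1G62690, 86 to 79 before AT4G32510, 46 to 39 before SK4 and 119 to 112 before AT5G24206.

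Of the 418 higher genes, 95 were called neither in bte1 nor in bte1 btl1, and 10 of those 95 were among the 378 genes (1.73%) higher in hid1 than in WT. Of the 378 genes, 40 (10.6%, or 9.57% of the 418) were higher in bte1 hid1 and 4 were lower. The median between the doubles was 0.028 for the 378 genes and -0.13 for the 376 genes (1.72%) lower in hid1, of which 14 were called lower and 5 higher. The 14 became 6 to 9 without bte1 hid1 replicate 1 or 2, hid1 phil1 replicate 1 or 2, hid1 replicate 3 or WT replicate 1.

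A few loci were high in hid1 and stayed high in bte1 hid1 but not in hid1 phil1. QQS, an Arabidopsis gene of starch metabolism whose expression is known to vary epigenetically, was at 12, 15.2 and 23.6 CPM in bte1 hid1 against 0.364, 0.374 and 1.38 CPM in hid1 phil1 (log2 4.57, SE 0.41, adjusted p = 3.10e-07). hid1 had 35.1 ± 2.2 CPM (SD, n = 3), WT 1.53 ± 0.786 and bte1 0.356 ± 0.108. The SADHU3-2 retroelement was at 7.91, 7.69 and 15.9 CPM against 0.319, 1.03 and 0.69 CPM (log2 3.94, SE 0.51, adjusted p = 4.74e-05), with hid1 at 11.1 ± 1.67 and WT at 0.671 ± 0.200 CPM. Both loci were far lower in hid1 phil1 than in hid1 and bte1 hid1. RE2, a retrotransposon, followed the same order at low levels (0.643 CPM in bte1 hid1, 0.077 in hid1 phil1 and 3.95 in hid1, log2 2.97, adjusted p = 0.00693). These 3 were the called genes in a list of 9 transposons and epigenetically variable genes, of which 5 passed the filter on low counts, and since a locus could pass through the line where it is high, nothing is read from that count.

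AT3G01345, an uncharacterized protein gene, showed the widest difference of all called genes. It had 53.2, 82.9 and 96.7 CPM in bte1 hid1 against 0.228, 0.328 and 0.368 CPM in hid1 phil1 (log2 7.95, SE 0.41, adjusted p = 5.26e-11). hid1 was at 2.87 ± 1.34, bte1 at 0.575 ± 0.389 and WT at 0.359 ± 0.195 CPM, so the high level was seen in the bte1 hid1 libraries alone among the genotypes shown. MRD1 and HEI10, which overlap in the annotation, were low in both doubles. MRD1 was at 10.8, 3.51 and 8.69 CPM in bte1 hid1 and 0.182, 1.64 and 0.046 CPM in hid1 phil1 (log2 3.63, SE 0.51, adjusted p = 0.000262), and HEI10, a gene of meiotic recombination, at 12.7, 4.89 and 10.6 CPM against 1.32, 2.81 and 1.56 CPM (log2 2.31, SE 0.28, adjusted p = 1.90e-05). WT had 29.1 ± 1.42 and 33.5 ± 2.1 CPM and hid1 7.75 ± 1.82 and 10.07 ± 1.67 CPM. bte1 hid1 thus resembled hid1 and hid1 phil1 was lower still, but reads of the overlap could belong to either gene, and with only the 2 genotypes fitted the adjusted p was 0.235 for MRD1 and 0.0568 for HEI10.

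**Figure D5:**
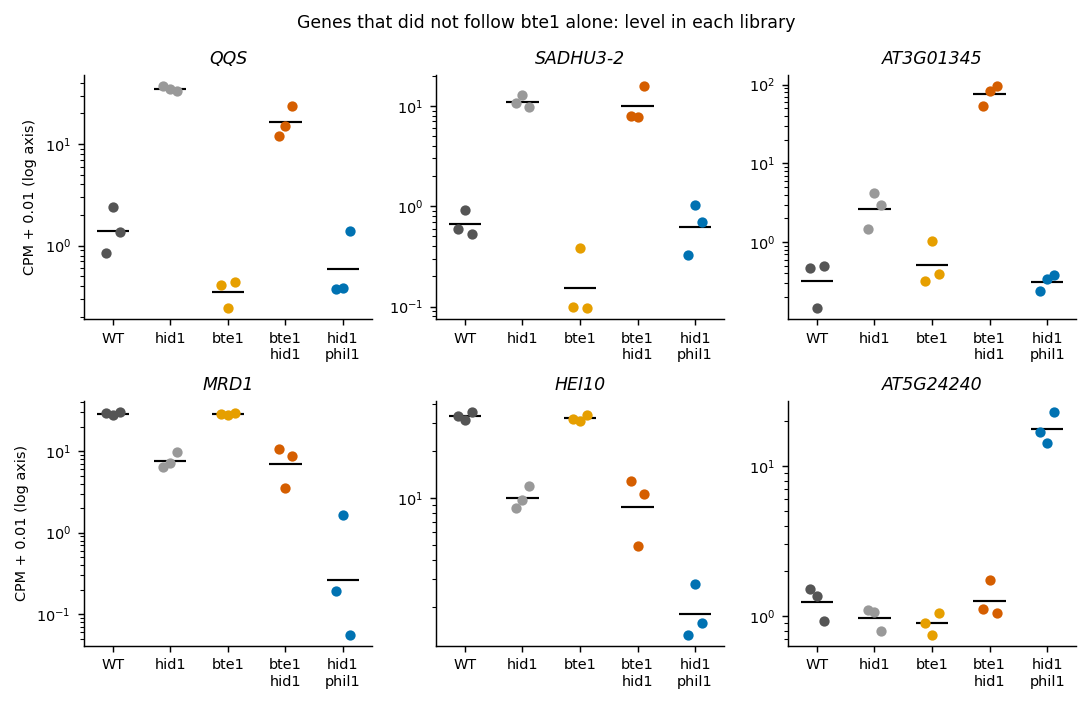
CPM + 0.01 of 6 genes in each library of 5 genotypes (log axes); points are the 3 libraries and bars the geometric mean. QQS and SADHU3-2 are high in hid1 and bte1 hid1, AT3G01345 is high in bte1 hid1, MRD1 and HEI10 are lowest in hid1 phil1, and AT5G24240 is high in hid1 phil1 at 14.3 to 22.9 CPM.

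The difference between the 2 differences, bte1 hid1 minus hid1 phil1 compared with bte1 minus WT, was tested over all genes and called 22 (0.100%). HIL1 had the smallest adjusted p: it was 3.49 higher in bte1 than in WT but 0.45 lower in bte1 hid1 than in hid1 phil1, a difference of -3.94 (SE 0.21, adjusted p = 1.25e-11). AT1G51610, a cation efflux family gene, was at 26.7, 25.3 and 24.7 CPM in bte1 hid1 and 25.4, 22.1 and 27.1 CPM in hid1 phil1, but at 8.81 ± 0.427 CPM in bte1 and 8.76 ± 1.43 CPM in bte1 btl1 against 27.8 ± 0.979 CPM in WT. The low level of this gene in the bte1 lines was thus not present in bte1 hid1 (difference of differences 1.69, adjusted p = 9.12e-09). AT2G41640, a glycosyltransferase family gene, was near 11 to 15 CPM in every mutant line listed (hid1 15.4, bte1 11.5, bte1 hid1 12.9, hid1 phil1 12.3) and at 35 CPM in WT. AT5G14840, a transcribed pseudogene, was at 61.8, 61.6 and 54.6 CPM in bte1 hid1 and 31.8, 34.9 and 29.7 CPM in hid1 phil1 (log2 0.89, adjusted p = 3.28e-08), and at 30.4 CPM in bte1 and 33.5 CPM in WT.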

How the data were processed

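The deposited count table held raw reads per gene for 24 libraries, 8 genotypes with 3 libraries each. Per the submitters' processing notes, fastp, HISAT2 2.1.0 and SAMtools 1.6 were used with the TAIR10 build, and the counting tool and its strand setting are not given in the sources used here. The authors also deposited FPKM values, used only to compare paralogues. Counts were tested with edgeR 4.0.16 (R 4.3.3): TMM scaling, a low-count filter that left 21897 of 33612 features, 1 quasi-likelihood fit over all 24 libraries (16 residual degrees of freedom), Benjamini-Hochberg adjustment and a threshold of 0.05. Alternatives were DESeq2 1.42.0, other scaling, no filter, fewer libraries, a replicate block and each library left out. In data simulated for the comparison of the doubles, 21633 genes were run. Of these, 57, 73 and 70 genes at 1 CPM or more were changed by 1.5-fold, 2-fold and 4-fold. The fit recovered 61.4%, 82.2% and 97.1% of them. Each gene was given the same spread in all libraries, so the simulation did not represent hid1 phil1 replicate 2, nor recovery in genes below 1 CPM. Intervals cover counting error only.

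Members and gene lists were chosen with earlier results of these data known. Named genes were the HID1 and HIL1 loci, the DREAM and E2F list, the 12 highest and 12 lowest non-overlapping called genes with a symbol and at least 1 CPM, the 4 highest and 4 lowest without one, up to 3 called genes per list, and the 5 with the smallest p for the difference of differences; other named genes were added after their values had been seen. Of 813 list names, 754 matched; names and promoters come from RefSeq TAIR10.1, which matched 32816 features. The values of 1 called gene of the lists are not reported here.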

Additional observations from a re-analysis of the deposited data

Results flagged for a closer look

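For 11 named genes, the difference between bte1 hid1 and hid1 phil1 itself differed from that between bte1 and WT (edgeR, difference of differences, adjusted over 21897 genes). HIL1 had a value of -3.94 and AT2G35743, with nearly the same counts in those genotypes, -3.89 (adjusted p = 8.54e-10). Values of 6.64 for QQS (adjusted p = 2.92e-05), 5.81 for SADHU3-2 (0.0124) and 7.31 for AT3G01345 (0.00123) belonged to loci that were called higher between the doubles and not called between bte1 and WT. For QQS, bte1 was at 0.356 and WT at 1.53 CPM (log2 -2.06, adjusted p = 0.0618), and for SADHU3-2 at 0.182 and 0.671 CPM (log2 -1.86, adjusted p = 0.377), so part of both values lies in the lower bte1 mean. MRD1 and HEI10, which overlap, had 3.65 (0.0156) and 2.36 (0.00272). AT5G24240, high in hid1 phil1, had -3.31 (0.00518). AT1G51610 had 1.69 and AT2G41640 1.68 (9.12e-09 and 1.21e-08), both low in bte1 and with no call between the doubles, and AT5G14840 had 1.02 (1.03e-05). The cause of these differences was not tested.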

How the results depend on the processing

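Higher calls numbered 400 to 467 under RLE scaling (405), no filter (400), DESeq2 (467) and 15 libraries (429), and 211 with only the 2 genotypes fitted. The 15 libraries are those of WT, hid1, bte1 and the 2 doubles. Lower calls were 70 to 80 with no filter, RLE and the block (72), 135 with DESeq2, 128 with 15 libraries and 25 with only the 2 genotypes. Leaving out 1 library gave 297 to 351 higher and 28 to 78 lower calls. The set lower in bte1 and between the doubles was 30 with DESeq2 (19 in the fit reported), and the set lower in hid1 and between the doubles 26 with 15 libraries (14). With 1 library left out the shared sets spanned 216 to 254 (higher, bte1), 10 to 19 (lower, bte1), 241 to 275 and 17 to 27 (bte1 btl1), and 30 to 38 and 6 to 15 (hid1), and the difference of differences 15 to 21 calls. No result reversed. The replicate block made 478 calls, 461 of them shared with the 494. Of 56 named calls, 35 held in every alternative and 4 were lost under the replicate block: HIL1 (adjusted p = 0.0517), PEL3 (0.0515), XTH6 (0.0767) and MSRB6 (0.0551). No pairing by replicate number was seen (correlations of same-numbered libraries 0.193, -0.248 and -0.294). With 3 libraries per line these values cannot exclude such a pairing. The cause of these shifts was not tested. Genes near 1 CPM had few reads, which limits their precision.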
